A study of Mus musculus with 9 samples.

Results

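Mitochondria in one cell join and divide, and 10 genes that carry out or control these events were followed across naive and activated mouse B cells with intact or floxed alleles of Mct1, the gene of the monocarboxylate transporter MCT1. The genes were taken by symbol from the deposited table: Mfn1, Mfn2 and Opa1 for fusion, Dnm1l, Fis1, Mff, Mief1 and Mief2 for fission, and Oma1 and Yme1l1 for the proteases that process OPA1. They are 10 of 17596 genes in the table, and all 10 belonged to the 10823 genes that averaged 1 FPKM or more and were tested. FPKM are fragments per kilobase of transcript, scaled by the mapped fragments of the library. Total RNA of splenic primary B cells was sequenced in 9 libraries. The study looked at MFN1, MFN2 and OPA1 as mediators of fusion in Mct1-deficient B cells, and the comparisons asked whether the transcripts of the fusion and fission machinery differed by genotype or by activation.

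Both genotypes carried Mb1Cre, a Cre recombinase expressed from the Mb1 (Cd79a) locus in the B cell lineage, and Mb1Cre mice without floxed alleles were the controls. Mct1 f/f Mb1Cre mice had in addition both copies of Mct1 floxed, on a C57BL/6J background, with loxP sites at exon 1 and intron 3. The mice used in the study were 6 to 8 weeks old. Day 0 cells were untreated (2 Mb1Cre and 2 Mct1 f/f Mb1Cre libraries), and day 3 cells had been cultured for 3 days with LPS at 10 µg/ml and IL-4 at 50 ng/ml (2 Mb1Cre and 3 Mct1 f/f Mb1Cre libraries). No label ties a library to a mouse, so the p-values measure the spread between libraries, which may be partly technical.

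Fusion of the outer membrane is driven by the mitofusins MFN1 and MFN2, and fusion of the inner membrane by the dynamin-like GTPase OPA1, which also shapes cristae. Division needs DRP1, the cytosolic GTPase encoded by Dnm1l, which is brought to the outer membrane by MFF, by the mitochondrial dynamics proteins MID51 (Mief1) and MID49 (Mief2), and by FIS1. The inner membrane proteases OMA1 and YME1L1 cut OPA1 into short forms, and OMA1 is activated by stress. Much of this control acts on proteins, through cleavage, phosphorylation and recruitment, which RNA levels do not show.

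Some properties of the libraries bear on the comparisons of the members. The targeted gene Slc16a1, which encodes MCT1, had 4.33 and 3.80 FPKM in Mb1Cre and 3.71 and 4.06 in Mct1 f/f Mb1Cre libraries on day 0, and 22.6 and 23.0 against 10.8, 9.81 and 9.5 on day 3. It was lower in Mct1 f/f Mb1Cre cells on day 3 (log2 difference -1.11 ± 0.07 SE, adjusted p = 9.07e-06, limma) and did not pass on day 0 (-0.05, adjusted p = 0.844), where the genotypes overlapped. The day 0 libraries therefore show no loss of this transcript, and on day 3 its mean was 44.1% of that in Mb1Cre libraries. The 6 B cell markers were present in all libraries and summed to between 2182 and 4612 FPKM. The 4 proliferation markers summed to 32.2 and 34.2 FPKM in Mb1Cre and 40.3 and 44.3 in Mct1 f/f Mb1Cre libraries on day 0, and to 271.7 to 299.6 on day 3, and all 4 passed the interaction of genotype and day. The 4 plasma cell markers summed to 123.2 and 132.8 FPKM in Mb1Cre and 173.1 and 215.4 in Mct1 f/f Mb1Cre libraries on day 0, and to 204.4 and 217.3 against 148.5 to 166.5 on day 3. Of these, Jchain and Irf4 were lower in all Mct1 f/f Mb1Cre libraries on day 3, and Prdm1 and Sdc1 higher. The 8 myeloid markers summed to 1015 to 1823 FPKM on day 0 and to 14.95 to 25.5 on day 3, where the Mct1 f/f Mb1Cre libraries (22.2 to 25.5) lay above the Mb1Cre libraries (14.95 to 16.8). Of these, Lyz2, Itgam, Csf1r and Adgre1 were higher in all Mct1 f/f Mb1Cre libraries on day 3, and S100a8, S100a9, Ly6g and Mpo were not. By genotype on day 3, 2 of 7 tested myeloid markers passed, both higher, beside 15.2% of all tested genes in either direction. The 5 erythroid markers summed to 96.0 to 173.4 FPKM on day 0 and 4.34 to 7.95 on day 3, and the 6 T and NK cell markers to 36.6 to 42.2 and 1.97 to 2.10. In bulk RNA, fewer cells of a type and less RNA per cell cannot be told apart. The 4 Y-linked genes summed to 2.23 and 3.29 FPKM in the Mb1Cre day 0 libraries, to 112.4 and 3.55 in the Mct1 f/f Mb1Cre day 0 libraries, and to 74.0 to 95.04 in all day 3 libraries. Activation and the sex of the mice therefore cannot be told apart in Mb1Cre cells, and in Mct1 f/f Mb1Cre cells only replicate 1 of day 0 shares high Y-linked levels with day 3. The same imbalance enters the genotype comparison on day 0 and every interaction of genotype and day, and its part in those values was not tested.

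Per length of transcript, Fis1 was the most abundant of the 10 genes, with a mean of 109.4 FPKM over the 9 libraries, above 94.0% of the tested genes. Mff (36.6), Yme1l1 (30.0) and Dnm1l (25.1) followed. Mfn2 (14.1) and Opa1 (13.5) lay near the middle of all tested genes, and their ranges of 13.5 to 14.7 and 11.02 to 15.5 FPKM overlapped. Mief1 (9.44) and Oma1 (9.20) came next with overlapping ranges, then Mfn1 (6.78), and Mief2 was lowest at 4.67 FPKM. No other neighbours in this order overlapped in any library. The mean of Mfn2 was thus above that of Mfn1, and the mean of Mief1 above that of Mief2, in every group. Yme1l1 hardly varied, with a highest library 1.03 times the lowest, and Mief2 varied most, with a ratio of 1.58. For the 10823 tested genes the median of this ratio was 1.87, so that all 10 members varied less between libraries than the median gene.

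**Figure D1:**
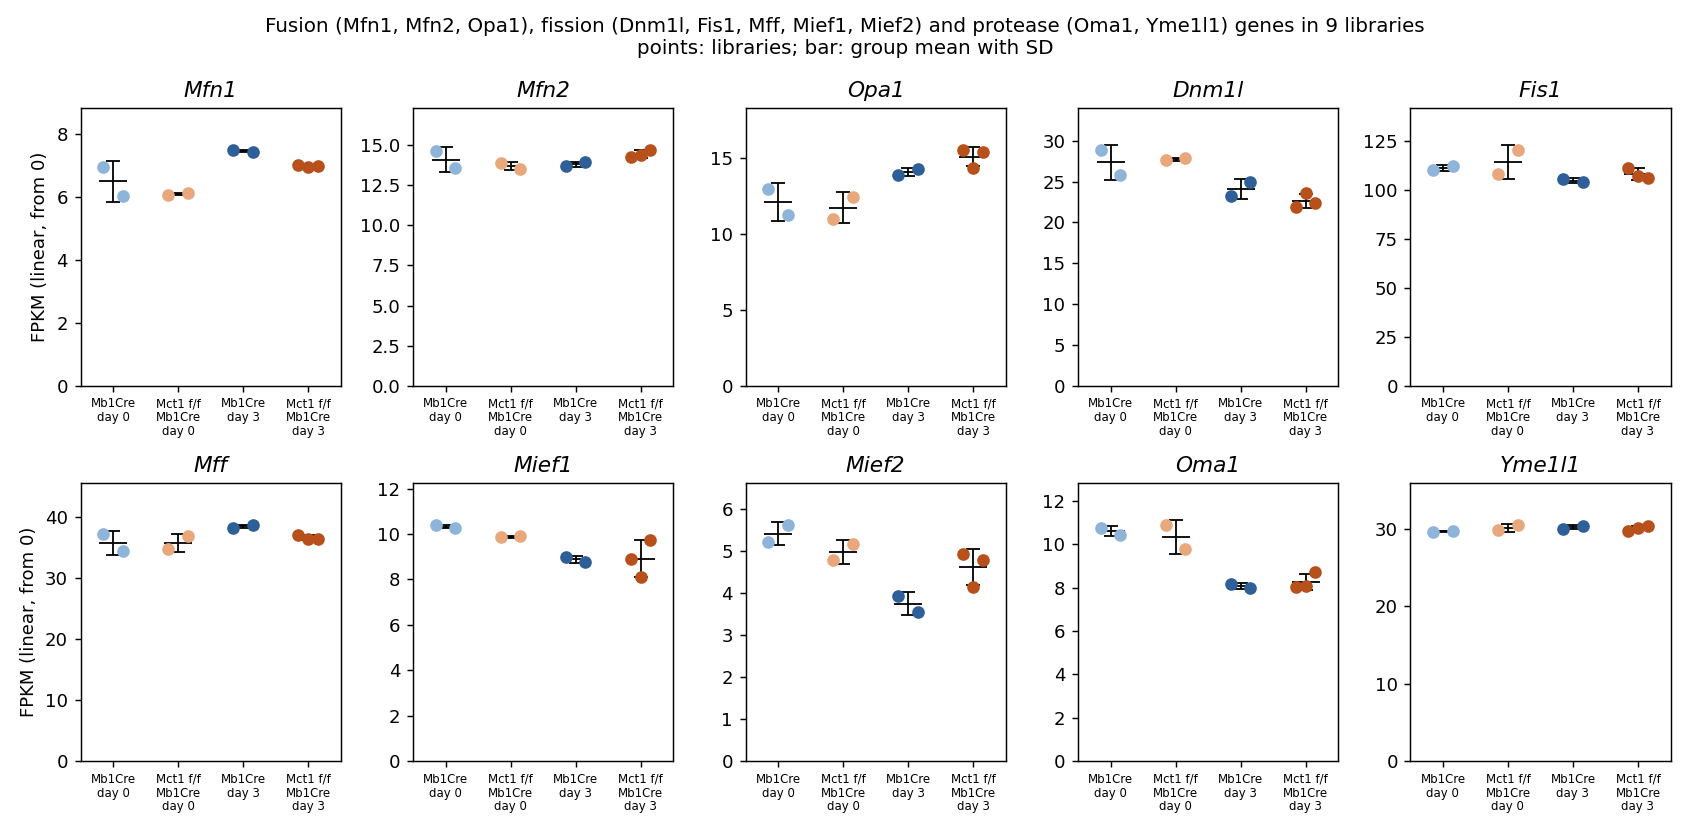
FPKM (linear axis from 0) of the 10 genes in each of 9 libraries, with the mean and SD of each of the 4 groups. The day 3 libraries of Mfn1 and Opa1 lie above their group's day 0 libraries and those of Dnm1l and Oma1 below, and Yme1l1 stays between 29.6 and 30.4 FPKM.

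Mfn1 and Mfn2 were also measured by quantitative PCR in the study, after a shorter culture with LPS and IL-4 than the 3 days here. The study reported Mfn1, Mfn2 and Opa1 as higher in Mct1-deficient B cells, in both RNA and protein. The 4 primers are shown because they tell which part of each transcript the quantitative PCR reads. Capitals mark the bases that lie across an exon junction at the 3′ end of a primer.
Mfn1 forward: ttgttgggggcgtgATTTGG
Mfn1 reverse: actgctgcttaaacgctctc
Mfn2 forward: gccagtttgtggaatacgcc
Mfn2 reverse: aatgtcccagacaattccTGCT
In GRCm38 (GENCODE M21) the Mfn1 forward primer lies on the plus strand in coding exons 14 and 15 of 17 (chr3:32568396-32568409 and chr3:32569488-32569493), and the reverse primer in exon 15 (chr3:32569589-32569608), for a product of 135 bases. The Mfn2 gene is on the minus strand, with the forward primer in coding exon 17 of 19 (chr4:147878776-147878795) and the reverse primer across exons 17 and 18 (chr4:147878714-147878717 and chr4:147877068-147877085), for a product of 100 bases. Each primer matched transcripts of its own gene alone, in 3 of 5 protein-coding Mfn1 transcripts and 3 of 6 of Mfn2. The FPKM values have 1 row per gene and do not separate these transcripts.

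Among the fusion genes, Mfn1 had 7.49 and 7.43 FPKM in the Mb1Cre libraries on day 3 and 7.0, 6.95 and 6.98 in the Mct1 f/f Mb1Cre libraries. The genotypes did not overlap, and the means of 7.46 ± 0.04 (SD, n = 2) and 6.98 ± 0.03 (SD, n = 3) differed by a log2 value of -0.08 (95% interval -0.22 to 0.05, adjusted p = 0.419). Mfn2 went the other way, with 13.7 and 13.9 FPKM against 14.2, 14.4 and 14.7. That log2 difference was 0.06 (-0.05 to 0.17, adjusted p = 0.466), again without overlap and again short of the threshold. Opa1 had 13.9 and 14.3 FPKM in Mb1Cre libraries and 15.5, 14.4 and 15.4 in Mct1 f/f Mb1Cre libraries. All 3 Mct1 f/f Mb1Cre values were above both controls, by a log2 difference of 0.09 (-0.06 to 0.25, adjusted p = 0.434). None of the 3 fusion genes therefore passed on day 3, and their intervals lay within -0.22 and 0.25 on the log2 scale.

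The fission genes gave small differences on day 3 as well, with Mief2 the largest. Dnm1l had 23.3 and 24.9 FPKM in Mb1Cre libraries and 21.9, 23.5 and 22.4 in Mct1 f/f Mb1Cre libraries, which overlapped (log2 difference -0.09, 95% interval -0.21 to 0.04, adjusted p = 0.350). Fis1 had 105.6 and 104.0 against 111.4, 107.1 and 106.0 FPKM (0.05, adjusted p = 0.594), and Mff 38.2 and 38.6 against 37.0, 36.4 and 36.3 (-0.07, adjusted p = 0.366). The Fis1 and Mff libraries did not overlap between the genotypes, in opposite directions. Mief2, which encodes the DRP1 receptor MID49, had 3.93 and 3.55 FPKM in Mb1Cre libraries and 4.92, 4.13 and 4.78 in Mct1 f/f Mb1Cre libraries. Its mean was 3.74 ± 0.27 (SD, n = 2) against 4.61 ± 0.42 (SD, n = 3), a log2 difference of 0.24 (0.06 to 0.42) with an unadjusted p of 0.0126 and an adjusted p of 0.0696 in limma. It passed in 1 of 18 alternative settings, without Mct1 f/f Mb1Cre day 3 replicate 2 (log2 difference 0.30, adjusted p = 0.0393). Its paralog Mief1 had 8.98 and 8.78 against 8.88, 8.11 and 9.74 FPKM, with a log2 difference of 0.00 (-0.15 to 0.15).

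Neither protease differed by genotype beyond the spread of the libraries. On day 3 Oma1 had 8.19 and 8.0 FPKM in Mb1Cre libraries and 8.02, 8.08 and 8.70 in Mct1 f/f Mb1Cre libraries, which overlapped (log2 difference 0.03, adjusted p = 0.837). Yme1l1 had 30.0 and 30.4 against 29.7, 30.1 and 30.3 FPKM, with the narrowest interval of the 10 genes (-0.09 to 0.08).

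On day 3, 0 of 10 members passed in limma (1 at an unadjusted p under 0.05, Mief2), where 15.2% of all 10823 tested genes passed. In 6 of 10 members the libraries of the genotypes did not overlap (Mfn2, Opa1, Fis1 and Mief2 higher, Mfn1 and Mff lower), beside 47.1% of all tested genes. The median log2 difference was 0.01 over the members and -0.01 over all tested genes, and the median size 0.06 and 0.09. The sum of the myeloid markers, though not each marker, was higher in Mct1 f/f Mb1Cre libraries on day 3, as given above. Its part in these values was not tested.

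On day 0, 0 of 10 members passed and 0 of 10 had an unadjusted p under 0.05 in limma, beside 0.416% of all tested genes that passed. Mfn1 had 6.95 and 6.04 FPKM in naive Mb1Cre and 6.07 and 6.12 in naive Mct1 f/f Mb1Cre libraries. Opa1 had 13 and 11.2 against 11.02 and 12.5 FPKM, and Mfn2 14.7 and 13.6 against 13.9 and 13.5. The genotypes overlapped in all 3 of these genes. Mief2 had 5.21 and 5.60 against 4.77 and 5.17 FPKM, the reverse of its order on day 3 (log2 difference -0.10, adjusted p = 0.697). In 3 of 10 members (Yme1l1 higher, Mief1 and Mief2 lower) the libraries did not overlap, beside 38.4% of all tested genes.

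The interaction, the genotype difference on day 3 minus that on day 0, passed in 0 of 10 members (1 at an unadjusted p under 0.05) and in 9.42% of all tested genes. Its largest value among the members was again that of Mief2, at 0.34 (95% interval 0.08 to 0.61, unadjusted p = 0.0157, adjusted p = 0.101 in limma). The intervals of Opa1 (-0.10 to 0.37) and Dnm1l (-0.30 to 0.08) included 0.

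**Figure D2:**
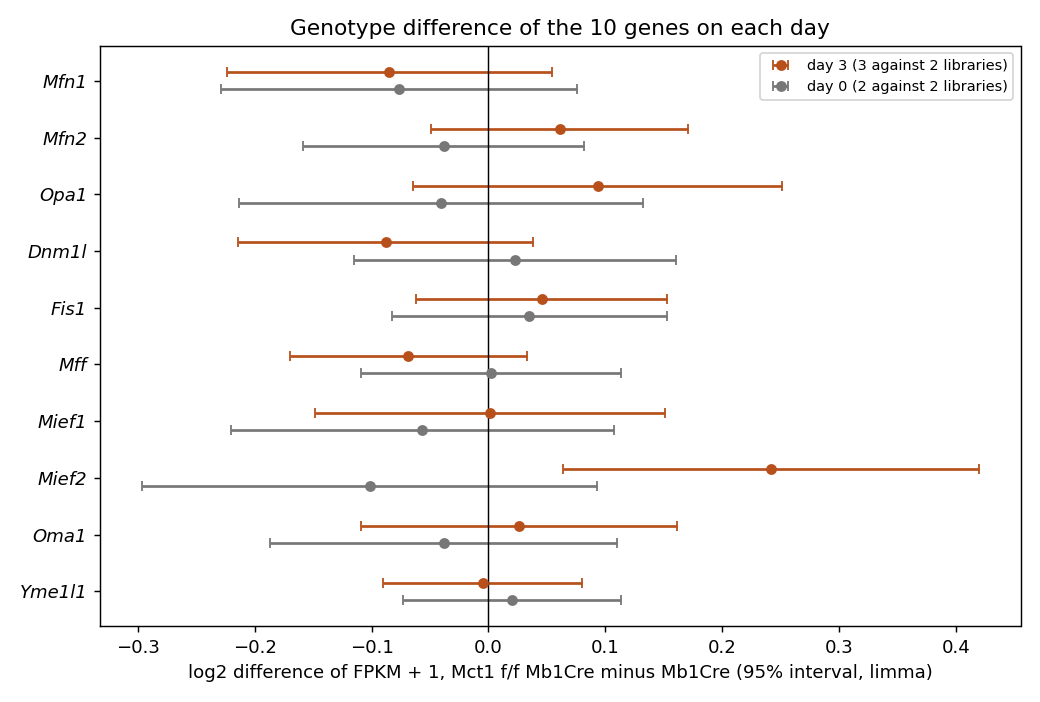
Log2 difference of FPKM + 1 between the genotypes (Mct1 f/f Mb1Cre minus Mb1Cre, points with 95% intervals from limma) for the 10 genes on day 3 and day 0. Every interval crosses 0 except that of Mief2 on day 3, which runs from 0.06 to 0.42.

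Activation moved some members in opposite directions. In Mb1Cre cells, Opa1 rose from 13 and 11.2 FPKM on day 0 to 13.9 and 14.3 on day 3 (log2 change 0.20 ± 0.08 SE, adjusted p = 0.0299), and Mfn1 from 6.95 and 6.04 to 7.49 and 7.43 (0.18 ± 0.07, adjusted p = 0.0320). Dnm1l fell from 28.9 and 25.8 to 23.3 and 24.9 FPKM (-0.17 ± 0.06, adjusted p = 0.0227). Mief1 fell from 10.4 and 10.3 to 8.98 and 8.78 FPKM (-0.20 ± 0.07, adjusted p = 0.0279) and Mief2 from 5.21 and 5.60 to 3.93 and 3.55 (-0.43 ± 0.09, adjusted p = 7.48e-04). Oma1 fell from 10.8 and 10.5 to 8.19 and 8.0 FPKM (-0.35 ± 0.07, adjusted p = 4.84e-04). Of the 6, Oma1 passed in all 19 alternative settings, Mief2 in 17 of 18 and Dnm1l in 16 of 19, while Mfn1, Opa1 and Mief1 each passed in 13 of 19. Without day 3 replicate 1, Mief2 and Oma1 were the 2 that passed, and 3 passed without day 3 replicate 2 or without day 0 replicate 2. Mfn1 and Opa1 also missed the threshold with a replicate block. Mfn2, Fis1, Mff and Yme1l1 did not pass, with log2 changes of -0.03, -0.09, 0.10 and 0.02.

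In Mct1 f/f Mb1Cre cells, Opa1 rose from 11.02 and 12.5 FPKM to 15.5, 14.4 and 15.4 (0.34 ± 0.07 SE, adjusted p = 9.54e-04) and Mfn1 from 6.07 and 6.12 to 7.0, 6.95 and 6.98 (0.17 ± 0.06, adjusted p = 0.0262). Dnm1l fell from 27.6 and 27.9 to 21.9, 23.5 and 22.4 FPKM (-0.28 ± 0.06, adjusted p = 6.67e-04), and Oma1 from 10.9 and 9.76 to 8.02, 8.08 and 8.70 (-0.29 ± 0.06, adjusted p = 0.00104). None of these 4 genes overlapped between the days. Opa1 and Dnm1l each passed in 18 of 19 alternative settings, Oma1 in 17 and Mfn1 in 12. Mief1 (-0.14, adjusted p = 0.0747) and Mief2 (-0.09, adjusted p = 0.302) did not pass here, and whether the change of Mief2 differed between genotypes is the interaction given above, which did not pass. Without day 0 replicate 2, so that only libraries with high Y-linked levels were compared, Opa1 (0.42), Dnm1l (-0.28) and Oma1 (-0.36) still passed, with adjusted p-values of 8.35e-04, 0.00572 and 9.94e-04. Mfn1 then had a log2 change of 0.17 with an adjusted p of 0.0768.

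These counts stood below the background. In Mb1Cre cells 6 of 10 members passed, 2 higher and 4 lower, where 84.6% of all tested genes passed, 37.0% higher and 47.5% lower. In Mct1 f/f Mb1Cre cells 4 of 10 passed, 2 in each direction, beside 85.5% of all tested genes, 36.4% higher and 49.1% lower. No member changed by more than 0.5 on the log2 scale in either genotype, while 57.8% of all tested genes passed with such a change in Mb1Cre and 56.5% in Mct1 f/f Mb1Cre cells. The median size of change was 0.18 and 0.12 over the members and 0.61 and 0.59 over all tested genes. The 2 genotypes were each compared with their own day 0 libraries, whose summed non-B cell markers were higher than on day 3, and the part of those cells in the changes was not tested.

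Small changes of this kind depend on how the libraries are scaled. The deposited FPKM of all genes summed to 477079 to 491459 on day 0 and 547355 to 563586 on day 3, and the median log2 change of all tested genes was -0.12 in Mb1Cre and -0.14 in Mct1 f/f Mb1Cre cells. Scaling to a common total moved these medians to -0.31 and -0.30, and median-of-ratios scaling to 0.07 and 0.06. Relative to the median of all tested genes, Opa1 was higher by 0.32 to 0.34 in Mb1Cre and 0.48 to 0.49 in Mct1 f/f Mb1Cre cells over the 4 scalings, and Mfn1 by 0.29 to 0.38 and 0.30 to 0.40. Oma1 was lower than that median in all 4, by values of -0.23 to -0.19 and -0.15 to -0.10, and Dnm1l by -0.18 to -0.04 and -0.28 to -0.14. In absolute terms Oma1 kept a negative and Opa1 a positive sign under all 4 scalings in both genotypes. The calls were less steady than the signs. In Mct1 f/f Mb1Cre cells Oma1 did not pass under median-of-ratios scaling (adjusted p = 0.173, limma) or quantile normalization (0.233). Opa1 did not pass under a common total (0.863 in Mb1Cre and 0.0526 in Mct1 f/f Mb1Cre cells), nor Dnm1l under median-of-ratios scaling (0.613 and 0.208). Mfn1 reached -0.0001 under a common total in Mb1Cre cells, and Dnm1l turned to 0.03 under median-of-ratios scaling in Mb1Cre cells.

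**Figure D3:**
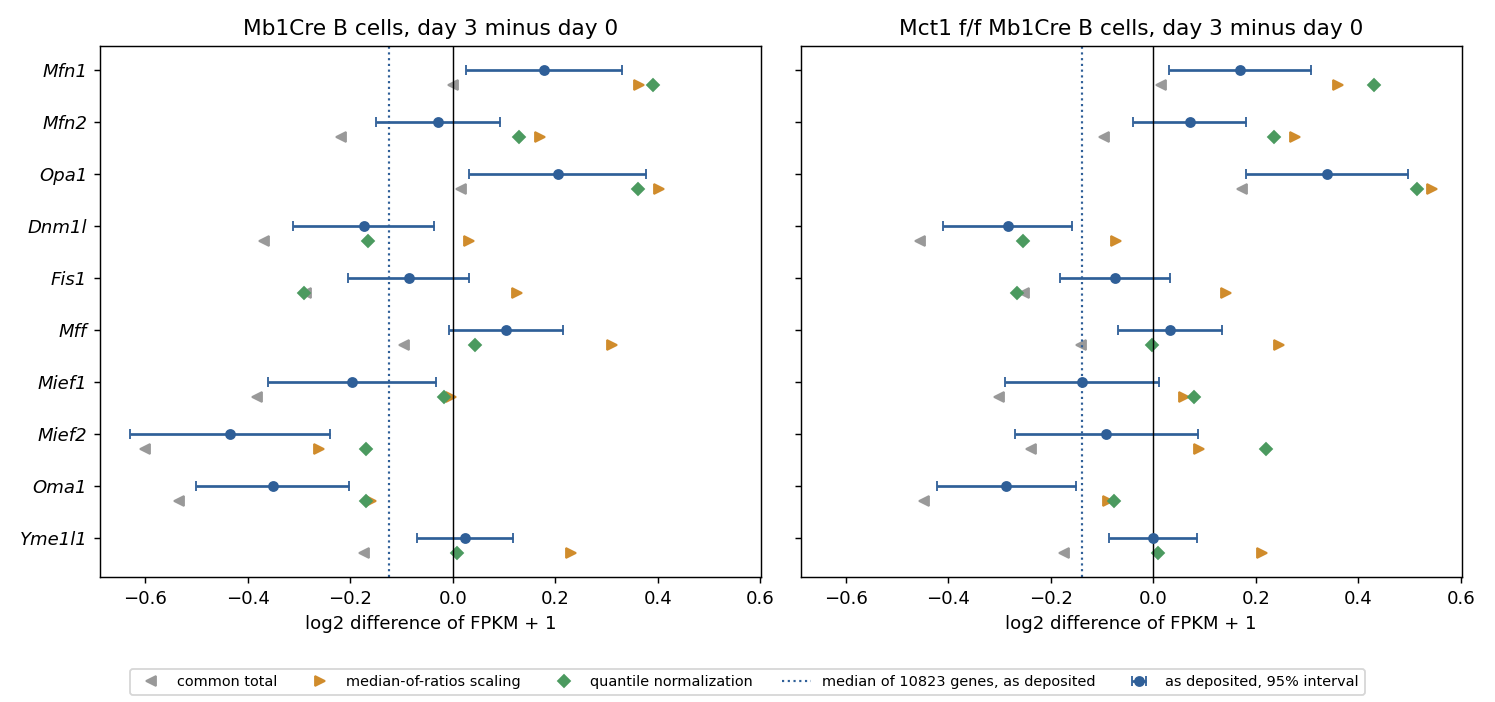
Log2 change of FPKM + 1 from day 0 to day 3 for the 10 genes in each genotype, as deposited with 95% intervals (limma), under 3 other scalings, and with the median of 10823 genes as a dotted line. As deposited, Opa1 lies right of the dotted line and Oma1 left of it in both panels. In Mct1 f/f Mb1Cre cells Oma1 lies right of this line under median-of-ratios scaling (-0.09) and quantile normalization (-0.08). The common total and median-of-ratios scalings move all 10 genes by about the same amount.

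Ratios between members of the same library do not change when a library is scaled by a constant, and they were compared without a test. The log2 ratio of Opa1 to Dnm1l was -1.15 and -1.20 in Mb1Cre and -1.33 and -1.16 in Mct1 f/f Mb1Cre libraries on day 0, and -0.75 and -0.80 against -0.49, -0.71 and -0.54 on day 3. It was higher on day 3 in every library, and the day 3 genotypes did not overlap. Opa1 to Oma1, the GTPase against the protease that cuts it, was between 0.02 and 0.35 on day 0 and between 0.76 and 0.95 on day 3. Oma1 to Yme1l1 went from between -1.64 and -1.45 to between -1.92 and -1.80. Each of these ratios thus separated the days in all 9 libraries.

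In 4 of 6 ratios (Mfn1 to Mfn2, Opa1 to Dnm1l, Mfn2 to Dnm1l and Mief2 to Mief1) the genotypes did not overlap on day 3, and in Opa1 to Oma1 and Oma1 to Yme1l1 they overlapped. No share without overlap was computed for ratios at large, and the 47.1% of single genes is not a background for them. Mfn1 to Mfn2 joins genes that each did not overlap on day 3, in opposite directions. Mfn1 to Mfn2 had log2 ratios of -0.87 and -0.91 in Mb1Cre and -1.02, -1.05 and -1.07 in Mct1 f/f Mb1Cre libraries on day 3. On day 0 the same ratio was -1.08 and -1.17 against -1.19 and -1.14, which overlapped. The ratio of Mief2 to Mief1 was -1.19 and -1.31 in Mb1Cre libraries on day 3 and -0.85, -0.97 and -1.03 in Mct1 f/f Mb1Cre libraries, whereas on day 0 it lay between -1.05 and -0.87 in all 4 libraries. The Mb1Cre day 3 libraries therefore stood below the other 7 in this ratio. The mean log2 level of the 3 fusion genes minus that of the 5 fission genes was -1.14 ± 0.10 (SD, n = 2) in Mb1Cre and -1.17 ± 0.02 (SD, n = 2) in Mct1 f/f Mb1Cre libraries on day 0. On day 3 it was -0.82 ± 0.03 (SD, n = 2) and -0.84 ± 0.02 (SD, n = 3). The fusion genes as a group stood higher against the fission genes on day 3, and the genotypes overlapped on both days.

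**Figure D4:**
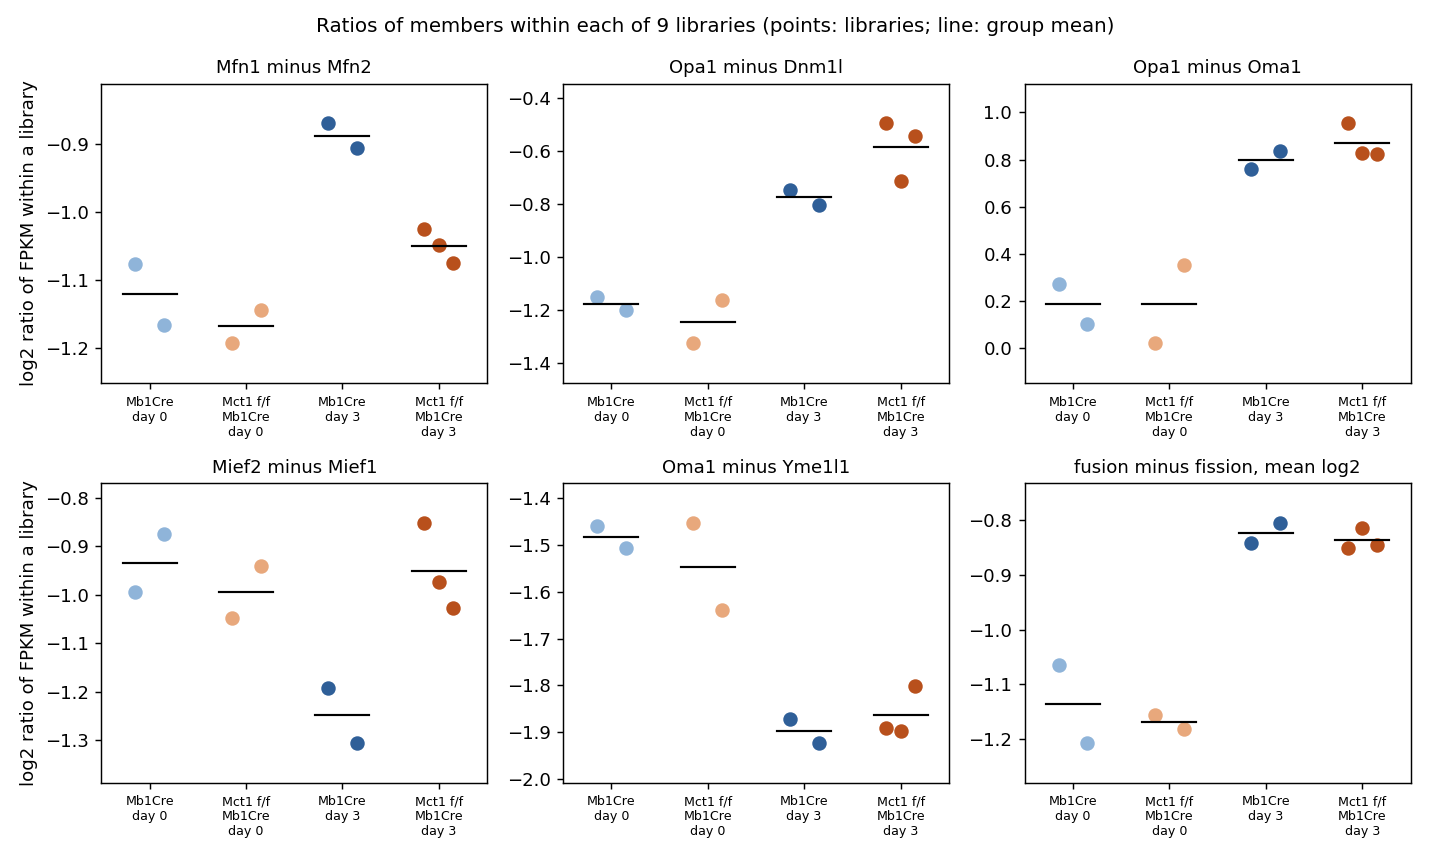
Log2 ratios of FPKM between members within each of 9 libraries (points) with group means (lines), each panel on its own axis. Opa1 to Dnm1l, Opa1 to Oma1 and the fusion to fission mean lie higher on day 3 than on day 0 in both genotypes, Mfn1 to Mfn2 is lower in the 3 Mct1 f/f Mb1Cre day 3 libraries than in the 2 Mb1Cre ones, and Mief2 to Mief1 is lowest in Mb1Cre cells on day 3.

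Over the 9 libraries, Mfn1 correlated with Mff (Pearson's r = 0.85) and Opa1 (0.80), and Oma1 with Mief1 (0.87) and Dnm1l (0.84) on the log2 scale. Oma1 and Opa1 ran in opposite directions (r = -0.85), and Mfn2 correlated with no member beyond 0.57. These values are descriptions over 9 libraries that share 2 days and 2 genotypes. Of all tested genes, the 3 most like Mfn1 were Pcdhgc3 (r = 0.99), Itfg2 (0.96) and Vamp7 (0.96). Those of Opa1 were Noxred1 (0.99), Slc9a5 (0.98) and Med24 (0.98), those of Dnm1l were Tia1 (0.99), Rit1 (0.98) and Dennd10 (0.97), and those of Mfn2 were Ubr4 (0.96), Erbb3 (0.96) and Fblim1 (0.94).

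The sequence before the start of 4 members is shown because the 3 fusion genes did not move together and Mief2 had the largest genotype difference. Each is 120 bases of RefSeq (GRCm38.p6) on the strand of the gene, 5′ to 3′. The first 3 run from base 150 to base 31 before the start and the last from base 120 to base 1. Capitals mark a match to CCGGAAGT (a core bound by ETS factors, in Mfn1), to the palindrome of 10 letters bound by NRF1 (in Opa1) or to CACGTG (an E-box, in Mief2).
Mfn1 (chr3:32529332-32529451, plus strand): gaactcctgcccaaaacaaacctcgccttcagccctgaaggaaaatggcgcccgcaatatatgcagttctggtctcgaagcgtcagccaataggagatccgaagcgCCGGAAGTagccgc
Mfn2 (chr4:147904940-147905059, minus strand): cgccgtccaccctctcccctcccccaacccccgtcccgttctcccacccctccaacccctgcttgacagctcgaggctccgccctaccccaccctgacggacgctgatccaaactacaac
Opa1 (chr16:29579184-29579303, plus strand): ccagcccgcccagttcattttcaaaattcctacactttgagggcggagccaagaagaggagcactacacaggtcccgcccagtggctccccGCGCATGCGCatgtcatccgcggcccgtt
Mief2 (chr11:60728278-60728397, plus strand): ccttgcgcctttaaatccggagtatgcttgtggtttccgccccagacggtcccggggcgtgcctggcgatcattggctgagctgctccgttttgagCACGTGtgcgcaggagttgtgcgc

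The motifs were searched on both strands in the 250 bases before the start of all 10 members and of 27025 promoters, and the 3 motifs do not overlap one another here. CCGGAAGT was in 3 of 10 members (Mfn1, Fis1 and Mief1) and in 2.92% of all promoters. The NRF1 palindrome, in capitals in the Opa1 line above, was in Opa1 and in 0.777% of all promoters, and CACGTG in Mief2 and in 6.04%. TGACGTCA, a cyclic AMP response element, was in no member and in 1.60% of all promoters. GC content of the 10 windows ran from 46.0% (Mff) to 69.6% (Mief1), beside a median of 52.0% over all promoters, and they held 8 to 27 CpG sites beside a median of 6. A match is a description of these letters.

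Further mitochondrial genes were described in 8 lists, of which 18 of 98 tested genes (18.4%) passed by genotype on day 3, near the 15.2% of all tested genes. Among 18 other fusion and fission factors (16 tested), 2 passed (12.5%), both lower in Mct1 f/f Mb1Cre cells. Inf2, a formin that assembles actin at sites of division, had 58.1 and 59.1 FPKM in Mb1Cre libraries and 38.5, 40.0 and 41.5 in Mct1 f/f Mb1Cre libraries (log2 difference -0.54 ± 0.05 SE, adjusted p = 5.17e-05). Marchf5, an outer membrane ubiquitin ligase that acts on DRP1 and the mitofusins, had 74.3 and 70.5 against 63.0, 65.3 and 62.7 FPKM (-0.18 ± 0.04, adjusted p = 0.0147). For Inf2 and Marchf5 the genotypes did not overlap. The list's median was -0.06, beside -0.01 over all tested genes. On activation of Mb1Cre cells 11 of 16 passed, beside 84.6% of all tested genes, 7 higher and 4 lower, led by Mtfr2, a fission regulator (2.22), and Inf2 (2.19), with Mtfr1l (-0.69) and Dnm2 (-0.64) lowest. In Mct1 f/f Mb1Cre cells 11 of 16 passed as well, and the change of Inf2 was 1.61.

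Of 10 genes listed as inner membrane protease partners and prohibitins, 4 passed on day 3 (40.0%, beside 15.2% of all tested genes). Lonp1, the main matrix protease, had 44.6 and 44.0 FPKM in Mb1Cre libraries and 33.5, 35.4 and 36.6 in Mct1 f/f Mb1Cre libraries (-0.33 ± 0.05 SE, adjusted p = 9.20e-04). Htra2 (-0.24, adjusted p = 0.0262), a protease of the intermembrane space, and Parl (-0.21, adjusted p = 0.0201), the inner membrane rhomboid protease, were also lower. Phb, a prohibitin of the inner membrane, was higher, at 66.5 and 61.8 against 73.4, 78.3 and 75.1 FPKM (0.23 ± 0.05, adjusted p = 0.00817). The list's median was -0.02, near the -0.01 of all tested genes. On activation all 10 passed in both genotypes, 9 higher and 1 lower, where 37.0% (Mb1Cre) and 36.4% of all tested genes passed higher, with Htra2 (1.12) and Lonp1 (1.02) highest and Spg7, a subunit of the m-AAA protease, at -0.53 in Mb1Cre cells. The members Oma1 and Yme1l1 changed by -0.35 and 0.02 in the same cells.

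The mitophagy list, genes for the removal of damaged mitochondria, had 5 of 11 tested genes (of 13) lower in Mct1 f/f Mb1Cre cells on day 3 and 0 higher (45.5%, beside 15.2% of all tested genes in either direction), with a median of -0.15 beside -0.01 over all tested genes. The adaptor Optn had 11.96 and 12.8 FPKM in Mb1Cre libraries and 8.31, 9.30 and 8.69 in Mct1 f/f Mb1Cre libraries (-0.46 ± 0.06 SE, adjusted p = 9.47e-04). Bnip3l, a receptor on the outer membrane, had 37.6 and 37.8 against 29.8, 27.8 and 25.3 FPKM (-0.44 ± 0.06, adjusted p = 8.27e-04). Its relative Bnip3 had 46.2 and 41.7 against 33.6, 34.6 and 29.5 FPKM (-0.42 ± 0.08, adjusted p = 0.00402). In these 3 genes all Mct1 f/f Mb1Cre libraries lay below both controls. The adaptors Sqstm1 (-0.18, adjusted p = 0.0239) and Nbr1 (-0.16, adjusted p = 0.0415) had smaller differences. The count was 2 without Mb1Cre day 3 replicate 1 (Optn and Bnip3l), and 3 without Mb1Cre day 3 replicate 2 or without Mct1 f/f Mb1Cre day 3 replicate 1. Activation of Mb1Cre cells brought Bnip3 (2.81) and Optn (1.41) up and Pink1, the kinase that starts mitophagy (-1.0), and Nbr1 (-0.92) down, among 6 of 11 that passed. In Mct1 f/f Mb1Cre cells 8 of 11 passed, 2 higher and 6 lower. Both shares (54.5% and 72.7%) lay below the 84.6% and 85.5% of all tested genes.

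Of 14 enzymes that act on DRP1, 2 passed on day 3 (14.3%, near the 15.2% of all tested genes), the kinase Pim1 lower (-0.31 ± 0.05 SE, adjusted p = 0.00311) and Ppp3ca, the catalytic subunit of calcineurin, which removes a phosphate from DRP1, higher (0.20 ± 0.05, adjusted p = 0.0201). On activation 11 of 14 passed (78.6%, below the background), 8 higher and 3 lower, in each genotype. In Mb1Cre cells cyclin B1 (Ccnb1) went from 4.64 and 3.81 to 55.8 and 56.9 FPKM (log2 change 3.46) and Cdk1, which with cyclin B marks DRP1 for division in mitosis, from 2.11 and 1.86 to 22.2 and 22.0 (2.95). Camk1 (-1.64) and Ppp3ca (-1.62) fell most. Ccnb1 and Cdk1 are also 2 of the 4 proliferation markers, and Dnm1l itself changed by -0.17.

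Among 13 genes of mitochondrial content, 13 of 13 rose on activation in both genotypes, where 37.0% and 36.4% of all tested genes passed higher, with median log2 changes of 0.95 and 0.95, led in Mb1Cre cells by the matrix chaperones Hspa9 (2.01) and Hspd1 (1.76). On day 3 only Hspa9 passed by genotype, at 245.1 and 244.3 against 213.6, 206.1 and 212.3 FPKM (-0.22 ± 0.05 SE, adjusted p = 0.0109). The 10 fusion and fission members had medians of -0.06 and -0.04 on activation. Of 14 genes of cristae and cardiolipin, 14 passed on activation in Mb1Cre cells (12 higher, 2 lower) and 12 in Mct1 f/f Mb1Cre cells (10 higher, 2 lower), beside the same background. Among them were the cristae junction subunits Chchd6 (1.63) and Apoo (1.34), and Taz, the cardiolipin acyltransferase tafazzin (-1.11). By genotype on day 3, Mtx1, an import factor of the outer membrane, was the 1 gene of this list that passed (0.20 ± 0.05, adjusted p = 0.0290).

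Of 8 transport and tethering genes, 1 passed on day 3 (Armcx3, an outer membrane protein of mitochondrial movement, -0.33 ± 0.08 SE, adjusted p = 0.0182). On activation of Mb1Cre cells 7 of 8 passed, with the lipid transfer gene Vps13d (-0.98) and the motor adaptor Trak2 (-0.86) lowest and Armcx3 (0.69) and the kinesin Kif5b (0.27) higher, and in Mct1 f/f Mb1Cre cells 7 of 8 passed too (87.5% in each, near the 84.6% and 85.5% of all tested genes). Of 12 tested biogenesis genes (of 13), Twnk, the mitochondrial DNA helicase (0.20, adjusted p = 0.0458), and the coactivator Pprc1 (0.16, adjusted p = 0.0472) were higher on day 3. Activation raised 3 and lowered 8 of the 12 in Mb1Cre cells, with Tfb1m at 1.17 and the nuclear receptor Esrra at -1.18, and raised 3 and lowered 5 in Mct1 f/f Mb1Cre cells. These are 91.7% and 66.7% of the list, beside 84.6% and 85.5%. On day 0, 0 genes of these 8 lists passed by genotype.

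**Figure D5:**
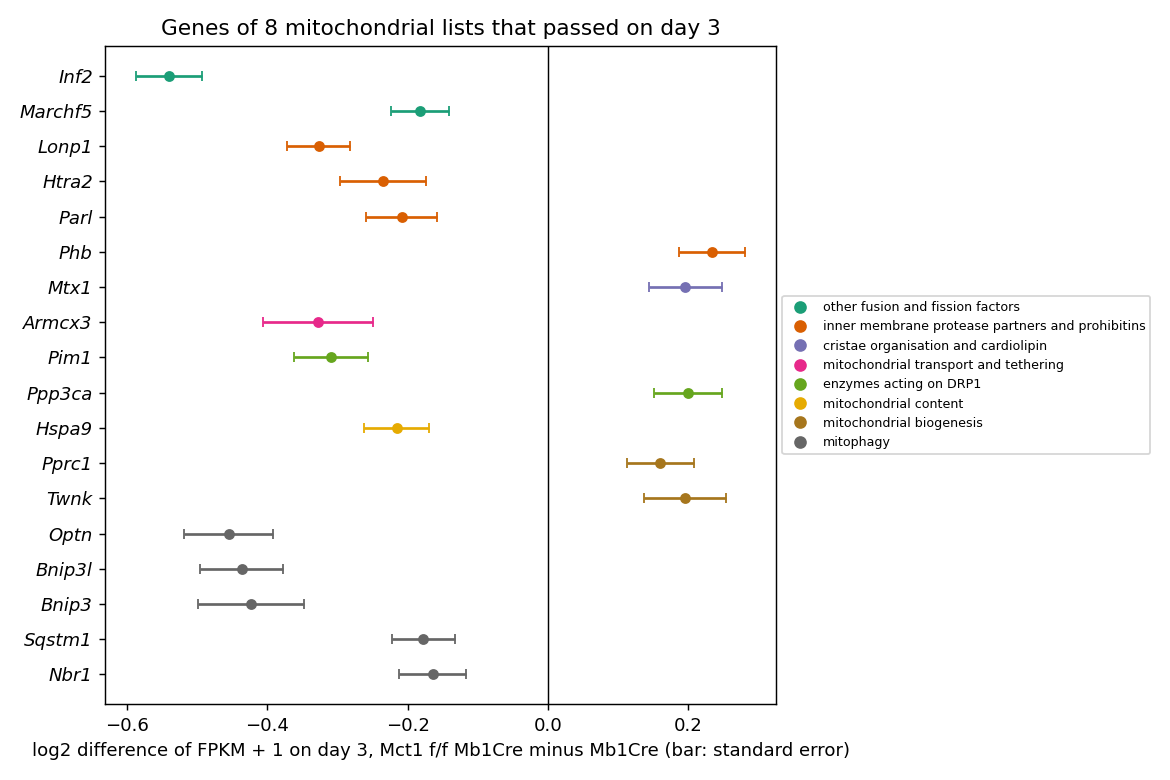
Log2 difference of FPKM + 1 on day 3 (Mct1 f/f Mb1Cre minus Mb1Cre, bars are standard errors from limma) for the 18 genes of the 8 mitochondrial lists that passed, coloured by list. Inf2 (-0.54) and the mitophagy genes Optn, Bnip3l and Bnip3 lie farthest left, and Phb (0.23) farthest right.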

How the data were processed

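Total RNA of 9 libraries of mouse splenic B cells was sequenced. The authors deposited FPKM values, 1 row per gene, rounded to 2 decimals; Bowtie2 and GRCm38 (mm10) are named in the submitters' processing notes, and the quantification tool and annotation are not given in the sources used here. FPKM hold no read counts, so the depth of each library and the counting error are unknown, and precision rests on 2 or 3 libraries a group. From these values log2(FPKM + 1) was computed, which understates changes of low genes. Genes averaging 1 FPKM or more over all libraries were fitted in limma 3.58.1 (R 4.3.3) with 4 group means, a trend and Benjamini-Hochberg adjustment over 10823 genes, and passed at an adjusted p under 0.05. The procedure was tested on simulated data with day 3 genotype changes larger than that of any member. This does not show how well changes of the members' size would be found. Positions come from GENCODE M21 and promoters from RefSeq (GRCm38.p6), in Python 3.11.15. All 10 members are named, with up to 5 genes of each other list that passed on day 3 by size, the 2 with the largest change each way in activated Mb1Cre cells, and the 3 tested genes most correlated with Mfn1, Mfn2, Opa1 and Dnm1l. The motifs were chosen after the promoters were read, and the members and lists with earlier results of these data known. Other pseudocounts, filters, scalings and fits, and each library left out, were tried.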

Additional observations from a re-analysis of the deposited data

Results flagged for a closer look

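The interaction of genotype and day (the genotype difference on day 3 minus that on day 0, limma, adjusted over all tested genes) passed for none of the 10 members. It passed for Slc16a1 and for 11 of 98 tested genes of the 8 lists (11.2%, near the 9.42% of all tested genes). The cell type marker lists were left out of this count and also held genes that passed, among them 2 of 4 plasma cell markers, both negative. Among Slc16a1 and the 11 list genes, Slc16a1 had the largest value, at -1.06 on the log2 scale (adjusted p = 4.24e-04). Bnip3 (-0.68, adjusted p = 0.00549), Inf2 (-0.58, adjusted p = 0.00137) and Bnip3l (-0.53, adjusted p = 0.00565) followed. Ccnb1 (-0.40), Pink1 (-0.34), Cdk1 (-0.33), Hspa9 (-0.30) and Lonp1 (-0.28) were also negative, and Twnk (0.31), Mtx1 (0.29) and Phb (0.29) positive, with adjusted p-values between 0.0226 and 0.0489. Ccnb1 and Cdk1 are 2 of the 4 proliferation markers, which all passed the interaction. The summed level of these markers on day 0 was higher in Mct1 f/f Mb1Cre (40.3 and 44.3 FPKM) than in Mb1Cre libraries (32.2 and 34.2). With the replicate block, Phb, Mtx1, Ccnb1, Cdk1, Twnk and Pink1 did not pass. Over 18 alternatives, 116 of 198 values of the 11 list genes kept the call. The other 82 did not pass, 31 of them with no library left out. No group held enough libraries for a test of outlying samples.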

How the results depend on the processing

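Under the alternatives (quantile normalization, a common total or median-of-ratios scaling, pseudocounts of 0.1 and 5, no filter or one at 5 FPKM, the replicate block, no trend, a fit to the 2 compared groups alone, and each library left out), 0 of 10 members passed by genotype on day 0 and in the interaction in each one, and 0 of 10 on day 3 except 1 without Mct1 f/f Mb1Cre day 3 replicate 2 (range over left-out libraries 0 to 1). On activation, the 6 members of Mb1Cre cells became 2 to 6 over left-out libraries, with 3 without day 0 replicate 2, 2 without day 3 replicate 1 and 3 without day 3 replicate 2, and the 4 members of Mct1 f/f Mb1Cre cells 3 to 4. Where 1 library remained in a group, it was assumed to vary like the other groups. A limit of 0.5 or 1 on the log2 change left 0 members in both. A common total gave 7 members, all lower, in each genotype, median-of-ratios scaling 7 (5 higher, 2 lower) and 6 (all higher), and quantile normalization 6 (3 higher) and 6 (4 higher). Of genes of all kinds that passed in Mb1Cre and Mct1 f/f Mb1Cre cells, 43.8% and 42.6% were higher as deposited and 53.9% and 53.5% under median-of-ratios scaling. Under a common total 34.8% were higher in each genotype, and under quantile normalization 50.8% and 51.5%. The share of all tested genes that passed under each scaling is not given here, so these counts are no result about the members. Oma1 passed in Mb1Cre cells in all 19 alternatives.

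With the replicate block, 4 members passed on activation of Mb1Cre cells (Dnm1l, Mief1, Mief2 and Oma1) and 4 in Mct1 f/f Mb1Cre cells, and 0 by genotype. The deviations of 12 same-numbered pairs from their group means correlated by -0.12 to 0.09. Those of 18 other pairs correlated by -0.17 to 0.17. In every group but Mct1 f/f Mb1Cre day 3 the deviations of the libraries mirrored each other. These correlations therefore cannot decide whether the numbers pair the libraries. Crossing the numbers of the Mb1Cre day 3 libraries, an alternative chosen after seeing the data, gave 6.

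Signs turned for several values, some of which had passed as deposited. On activation these were Mfn1 (0.18) and Dnm1l (-0.17) in Mb1Cre cells, and Chchd3 in Mb1Cre (-0.10) and Mct1 f/f Mb1Cre cells (-0.21). Some of the turned values passed under the other scaling, among them the 0.22 of Mief2 under quantile normalization given below. Under a common total, activation in Mb1Cre cells gave -0.0001 for Mfn1, -0.0945 for Mff and -0.17 for Yme1l1, and in Mct1 f/f Mb1Cre cells -0.0959 for Mfn2 and -0.14 for Mff. The genotype value was 0.007 for Yme1l1 on day 3 and -0.0093 for Mff on day 0, and the interaction of Mfn1 0.0143. Under median-of-ratios scaling, activation in Mb1Cre cells gave 0.17 for Mfn2, 0.0316 for Dnm1l, 0.13 for Fis1 and 0.11 for Chchd3, and in Mct1 f/f Mb1Cre cells 0.14 for Fis1, 0.0592 for Mief1, 0.0898 for Mief2, 0.21 for Yme1l1 and 0.0085 for Chchd3, with 0.0132 for Yme1l1 by genotype on day 3. Under quantile normalization, activation gave 0.13 for Mfn2 in Mb1Cre cells, and in Mct1 f/f Mb1Cre cells -0.0035 for Mff, 0.0796 for Mief1, 0.22 for Mief2 and 0.0084 for Yme1l1, with 0.0138 for Yme1l1 by genotype on day 3 and 0.0386 for the interaction of Mfn1. With the replicate block, day 3 genotype values were -0.0585 for Mief1 and -0.0071 for Oma1, and the interaction of Mief1 -0.002.

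With single libraries left out, signs also turned in these ranges. By genotype on day 0, they were -0.16 to 0.0112 for Mfn1, -0.0905 to 0.0137 for Mfn2, -0.14 to 0.0566 for Opa1, -0.0552 to 0.10 for Dnm1l, -0.0432 to 0.11 for Fis1, -0.0524 to 0.0573 for Mff, -0.11 to 0.0327 for Oma1 and -0.13 to 0.0244 for Slc16a1. By genotype on day 3, they were -0.0585 to 0.0603 for Mief1, -0.0071 to 0.0453 for Oma1 and -0.0135 to 0.0037 for Yme1l1. In the interaction, they were -0.10 to 0.0793 for Mfn1, -0.0677 to 0.0887 for Fis1, -0.002 to 0.12 for Mief1 and -0.0064 to 0.14 for Oma1. On activation, they were -0.0806 to 0.0235 for Mfn2 in Mb1Cre cells and -0.15 to 0.0026 for Fis1, -0.0086 to 0.0727 for Mff and -0.0162 to 0.014 for Yme1l1 in Mct1 f/f Mb1Cre cells.

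The fusion to fission mean differed by -0.01 between genotypes on day 3 (-0.03 to 0.00 without single libraries) and by 0.31 and 0.33 between days in Mb1Cre and Mct1 f/f Mb1Cre cells (0.24 to 0.39 and 0.32 to 0.35), and a pseudocount of 1 FPKM gave 0.30 in the latter. Of the 18 list genes that passed on day 3, none turned in sign in the 19 alternatives, and 275 of 342 values kept the call. The depth of the libraries is unknown, and 2 or 3 libraries a group limit what could be seen.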
